A study of Mus musculus with 4 samples.

Results

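Chromosome 16 held 693 of the 25957 H3K27me3 peaks of the series (2.67%), with 352 of 9866 in control GL261 cells and 341 of 16091 in irradiated GL261 cells. The members are the unique intervals of both peak lists on chromosome 16 of the mm10 build. They were compared on either side of 45 Mb, a point that was chosen from the peak numbers themselves, so those numbers are given as a description and carry no test. GL261 is a mouse glioblastoma cell line. The series has 4 libraries from this line: H3K27me3 chromatin immunoprecipitation from cells labelled Con (control), the same from cells labelled IR, and an input library (DNA without precipitation) of each. All were grown in the same medium with fetal bovine serum, and no genotype or second agent is labelled for either group. The series title speaks of radiation, and IR is therefore taken to mean irradiated. Neither dose nor harvest time is stated in the labels. Each group has 1 library, so there is no replicate error for a difference between the lists, no test between conditions was made, and all intervals cover counting error only. The inputs were not analysed here on their own, so the amount of DNA along chromosome 16 (its copy number) was not measured in either group.

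H3K27me3 is the trimethylation of lysine 27 of histone H3. Polycomb repressive complex 2, through its catalytic subunit Ezh2 or Ezh1, writes the mark, and in most tissues it lies over silent genes of development and over broad stretches that are poor in active genes. The mark is widely studied in gliomas.

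A peak here is an interval that the authors' caller listed as enriched. Its fold is the enrichment at the summit over a local background, and its q is the p-value adjusted over the genome, both the authors' own values and used within a list. Fold and p together gave back the ChIP reads at a summit and its background. On chromosome 16 the median control peak had 9 reads (quartiles 8 and 10) and the median irradiated peak 11 (quartiles 10 and 13), against 10 and 11 in the whole lists. At the lowest background a control peak needed at least 7 reads and an irradiated peak at least 8. Most peaks thus rest on few reads, and absence from a list does not show that a place lacks the mark.

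Few promoters lay under a peak. Of 1078 promoters of chromosome 16 in RefSeq (GRCm38.p6, the assembly of mm10; 250 bases before to 50 after each start), 1 overlapped a control peak (0.0928%) and 2 overlapped an irradiated peak (0.186%), against 0.283% and 0.484% of all 32851 promoters. These 3 promoters are printed 5′ to 3′ because no other promoter window of the chromosome overlapped a peak. Capitals mark each CG dinucleotide, the target of DNA methylation. The first is a start inside Rbfox1, at chr16:7069585-7069884 on the plus strand, the second belongs to the predicted gene Gm30444, at chr16:9003238-9003537 on the plus strand, and the third to the predicted gene Gm36063, at chr16:90596484-90596783 on the minus strand.
Rbfox1: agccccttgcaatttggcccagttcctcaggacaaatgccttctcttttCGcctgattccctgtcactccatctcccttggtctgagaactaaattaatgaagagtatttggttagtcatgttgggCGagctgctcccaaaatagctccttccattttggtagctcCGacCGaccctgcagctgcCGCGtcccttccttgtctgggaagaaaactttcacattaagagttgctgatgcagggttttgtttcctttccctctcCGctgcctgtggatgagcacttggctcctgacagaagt
Gm30444: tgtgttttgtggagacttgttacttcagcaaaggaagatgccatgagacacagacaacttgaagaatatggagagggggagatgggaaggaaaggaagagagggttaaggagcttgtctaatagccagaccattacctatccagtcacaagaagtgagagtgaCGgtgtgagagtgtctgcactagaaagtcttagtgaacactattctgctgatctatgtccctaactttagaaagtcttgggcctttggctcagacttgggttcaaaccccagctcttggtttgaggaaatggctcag
Gm36063: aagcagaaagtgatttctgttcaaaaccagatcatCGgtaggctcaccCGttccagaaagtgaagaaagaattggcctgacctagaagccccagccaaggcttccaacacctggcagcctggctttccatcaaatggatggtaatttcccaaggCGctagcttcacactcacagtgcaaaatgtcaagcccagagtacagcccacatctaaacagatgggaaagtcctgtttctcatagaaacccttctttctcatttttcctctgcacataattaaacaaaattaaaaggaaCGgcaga
They hold 7, 1 and 4 CG dinucleotides, and the median of all promoters was 7; 94.6% of all promoters hold at least 1. The Rbfox1 window lay wholly under an irradiated peak with 13 reads (fold 4.10, q 0.0536), and no control peak overlapped it. An irradiated peak with 17 reads (fold 5.93, q 0.000282) covered 147 bp of the Gm30444 window and ended 104 bp before the start itself. A control peak with 9 reads (fold 3.43, q 0.831) covered 129 bp of the Gm36063 window and lay 122 bp upstream of its start. Within 1000 bp of a start there were 3 control peaks (0.852%, against 2.14% of all control peaks) and 8 irradiated peaks (2.35%, the same as the 2.35% of all irradiated peaks). Within 5000 bp the shares were 4.26% against 8.73% for control and 9.09% against 10.6% for irradiated peaks.

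On the side before 45 Mb the lists were close in number, and on the side from 45 Mb the control list was the longer one. Before 45 Mb there were 243 control and 289 irradiated peaks, an irradiated share of 54.3% (95% exact interval 50 to 58.6). From 45 Mb to the end there were 109 control and 52 irradiated peaks, a share of 32.3% (25.2 to 40.1). In the whole series the share was 62.0%, so with all peaks counted both sides lay below it. When the irradiated list was shortened to the length of the control list, the share before 45 Mb fell to 42.7% and that from 45 Mb to 21%, so the order before 45 Mb depends on the unequal lengths of the lists. At a q of at most 0.05 in each list the shares were 86.8% (71.9 to 95.6) and 61.5% (31.6 to 86.1), on 38 and 13 peaks. The series then held 675 control and 2453 irradiated peaks, so 62.0% is not the background at this cut. Against the series share at this cut, the side before 45 Mb lay above and the side from 45 Mb below. Both intervals contain that series share, so neither side is shown to differ from it.

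The place where the lists parted was not 45 Mb. No peak of either list lay between 44286394 and 47555755, so 45 Mb falls in a gap, and the side would hold the same peaks at 46 Mb. The last control peak before the point ended at 44286394, in Sidt1, and the next began at 47555755. In the irradiated list the nearest peaks were at 44067613 to 44067911, beside Gramd1c, and at 79643709 to 79644142. Between them lay 35.6 Mb without an irradiated peak, with 42 control peaks and 140 protein-coding genes inside. The dense irradiated peaks had ended earlier, at 35885096, and the 8.18 Mb up to the peak at 44067613 held no irradiated and 6 control peaks.

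The limits of 36, 89 and 93 Mb that follow were chosen after the counts were seen. Before 36 Mb there were 235 control and 288 irradiated peaks (7.12 and 8.73 per Mb, counted from 3 Mb). Between 36 and 89 Mb there were 95 control and 4 irradiated peaks (1.79 and 0.0755 per Mb), an irradiated share of 4.04% (1.11 to 10.0). Between 89 and 93 Mb there were 22 control and 49 irradiated peaks, a share of 69.0% (56.9 to 79.5). From 93 Mb to the last gene, at 98.0 Mb, neither list had a peak, although 38 protein-coding genes lie there. The side from 45 Mb thus joins a long stretch almost without irradiated peaks, a short stretch with more irradiated than control peaks, and an end with none.

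**Figure D1:**
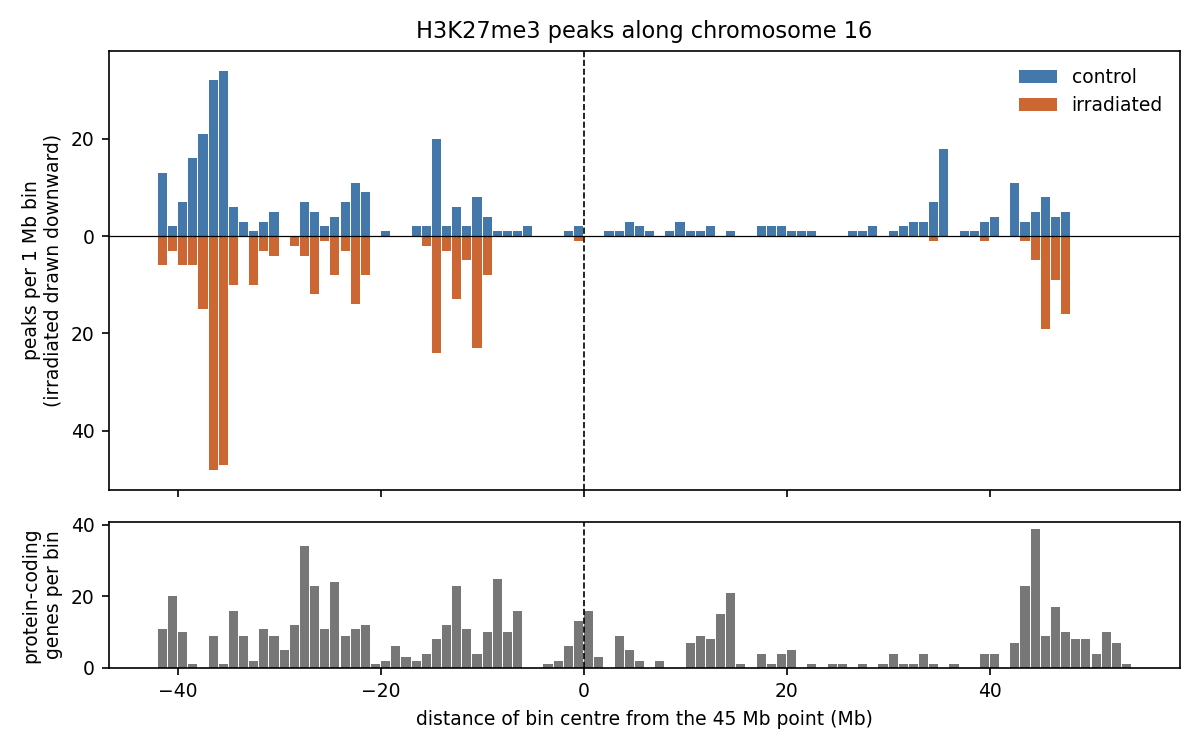
Peaks per 1 Mb bin of chromosome 16 (upper panel; control upward in blue, irradiated downward in orange) and protein-coding genes per bin (lower panel), against the distance of the bin from the 45 Mb point, marked by a dashed line. Irradiated peaks all but stop about 9 Mb before the line and return about 44 Mb after it, while scattered control peaks go on between.

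Bin by bin, 50 of the 96 bins of chromosome 16 (52.1%) held more control than irradiated peaks, against 23.1% of the 2581 bins of chromosomes 1 to 19 and X. More irradiated than control peaks were found in 18 bins (18.8%), against 38.2% of all bins. In 25 bins neither list had a peak, and in 3 the numbers were equal. Between 36 and 89 Mb the control list led in 38 of 53 bins, the irradiated list led in 0, and 15 were empty. The 33 bins before 36 Mb were mixed, with 12 led by the control list and 15 by the irradiated list.

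No other large block with at least 30 peaks had so low an irradiated share. When chromosomes 1 to 19 and X were divided into blocks of 45 Mb, 63 blocks held at least 30 peaks. Blocks with fewer peaks were left out, among them the end of chromosome 14 from 90 Mb, where the irradiated share was also low. The block from 45 to 90 Mb of chromosome 16 had 92 control and 8 irradiated peaks, a share of 8% (3.52 to 15.2). The next lowest of the 63 was 90 to 135 Mb of chromosome 13, with 37 and 29 peaks and a share of 43.9% (31.7 to 56.7). The highest share was 79.6%. Since the chromosome 16 block was picked for its counts, its rank is a description. Long stretches without an irradiated peak were found elsewhere too. Chromosome 14 had 40 bins in a row without one, from 78 to 118 Mb, but with 9 control peaks. Chromosome 16 had 34 such bins, from 45 to 79 Mb, with 39 control peaks, and the exact interval of the irradiated share reached up to 9.03%. Chromosome X had 30 without a peak of either list, and chromosome 13 had 19 with 3 control peaks. A stretch rich in control peaks was not particular to chromosome 16. Chromosome 15 had 7 bins, from 13 to 20 Mb, with 60 control and 0 irradiated peaks, a share of up to 5.96%, and 3 genes. It was shorter and denser, with 8.57 control peaks per Mb against 1.15 between 45 and 79 Mb of chromosome 16. These were the 2 stretches of chromosomes 1 to 19 and X without an irradiated peak that held at least 30 control peaks.

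On the other chromosomes the irradiated share was higher where there were more genes. It was 35.6% (30.3 to 41.2) in 271 bins without a protein-coding gene, 49.6% (47.6 to 51.6) in bins with 1 or 2 genes, and 72.6% (71.1 to 74.1) in bins with over 20 genes. On chromosome 16 from 45 Mb, bins without a gene held 30 control and 0 irradiated peaks in 13 bins, a share with an upper bound of 11.6%. Bins with 1 or 2 genes held 18 and 1, a share of 5.26% (0.133 to 26.0), and bins with 3 to 5 genes held 19 and 1. Taken at no more than 2 genes, the share was 2.04% (0.0517 to 10.9) from 45 Mb, 50.3% (42.2 to 58.4) before 45 Mb and 48.0% (46.1 to 49.9) on the other chromosomes. The count of control peaks in those bins was 1.78 per bin from 45 Mb, 7 before 45 Mb and 1.81 on the other chromosomes. The irradiated count was 0.037, 7.09 and 1.67 in the same order. From 45 Mb the control peaks of these bins were uneven. The bins from 79 and from 80 Mb held 7 and 18 of the 48, so the other bins held fewer than 1.78 on average. In bins with 6 to 10 genes the share from 45 Mb was 54.7% (41.7 to 67.2), but all 35 irradiated peaks of these bins lay past 89 Mb, and the 5 such bins between 45 and 89 Mb held 16 control and 0 irradiated peaks.

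**Figure D2:**
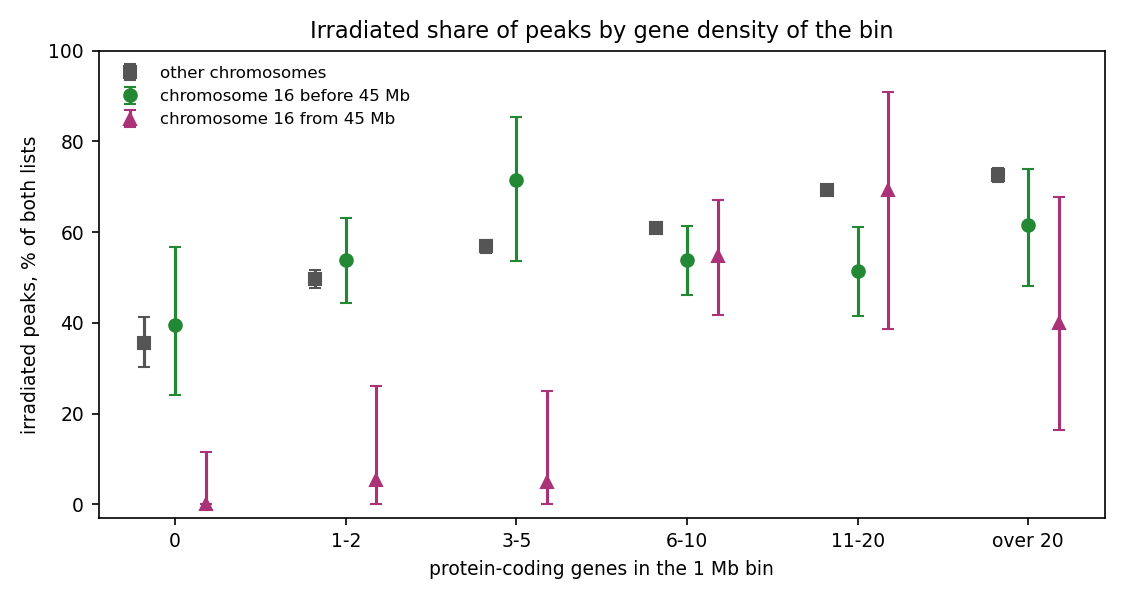
Irradiated peaks as a percentage of both lists (vertical axis, with exact 95% intervals) by the number of protein-coding genes in the 1 Mb bin (horizontal axis), for other chromosomes and both sides of chromosome 16. In bins with up to 5 genes the side from 45 Mb lies at 0 to 5.26%, below both other sets.

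The control peaks of the 36 to 89 Mb stretch were like other control peaks in strength, and those between 45 and 79 Mb lay further apart. Their median fold was 3.43 (quartiles 3.11 and 3.75) and their median read number 9, against 3.37 and 9 before 36 Mb. Their background was at the lowest value of the list in 60% of cases, against 54.0% before 36 Mb and 48.0% in the whole list. Their median width was 299 bp, against 348 bp. Of the 95, 40 (42.1%, 32.0 to 52.7) had no other control peak within 100 kb, against 12.8% (8.78 to 17.7) before 36 Mb and 16.1% in the whole list. Between 45 and 79 Mb this isolated form made up 29 of 39 peaks (74.4%, 57.9 to 87.0). Between 79 and 89 Mb it made up 7 of 48 (14.6%, 6.07 to 27.8), near the share of the whole list. Control peaks numbered 1.15, 4.8 and 7.12 per Mb at 45 to 79 Mb, 79 to 89 Mb and before 36 Mb. Isolation follows from a low density, so it is no separate result. The caller needed at least 7 reads at the lowest background, which sets a floor for strength in every part. Of the 95, 1 overlapped an irradiated peak.

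The densest group of the stretch lay in a gene desert. Between 79 and 81 Mb there were 25 control peaks and 1 irradiated peak, between Tmprss15, which encodes the intestinal protease enteropeptidase, and Ncam2, which encodes a neural cell adhesion molecule. The strongest control peak there, at 79792528 to 79792864, had 17 reads (fold 5.77, q 0.000454), and another at 79811961 to 79812587 had 13 reads (fold 4.72, q 0.0157). Neither was overlapped by an irradiated peak. A run of 8 control peaks from 79995073 to 80129580 lay 904 kb from Tmprss15 and 1071 kb from Ncam2, and no irradiated peak fell within it. In the stretch as a whole 2 more control peaks reached a q of 0.05, both at 0.0157: one between Usp25 and Cxadr, at 77364477 to 77364775, and one between Grik1 and Cldn17, at 88431216 to 88431606.

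The 8 irradiated peaks between 45 and 90 Mb can be named in full. In the desert beside Tmprss15, the peak at 79643709 to 79644142 rested on 9 reads (fold 3.12, q 0.649) and overlapped a control peak with 11 reads and a fold of 3.23. Between Mrpl39, a mitochondrial ribosome gene, and Jam2, which encodes a junctional adhesion molecule, the peak at 84761766 to 84762393 rested on 14 reads (fold 4.38, q 0.0536). Inside Grik1, which encodes a kainate receptor subunit, the peak at 88203008 to 88203277 rested on 11 reads (fold 4.16, same q). The other 5 lay between 89516320 and 89717827, among keratin-associated protein genes and before Tiam1, which encodes a Rac activator. The strongest of these, at 89557972 to 89558357, stood 11.8 kb from Krtap11-1 and had 16 reads (fold 5.79, q 0.00171). Thus 5 of the 8 fall into the last Mb before 90 Mb, where the control list also had 5 peaks.

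**Figure D3:**
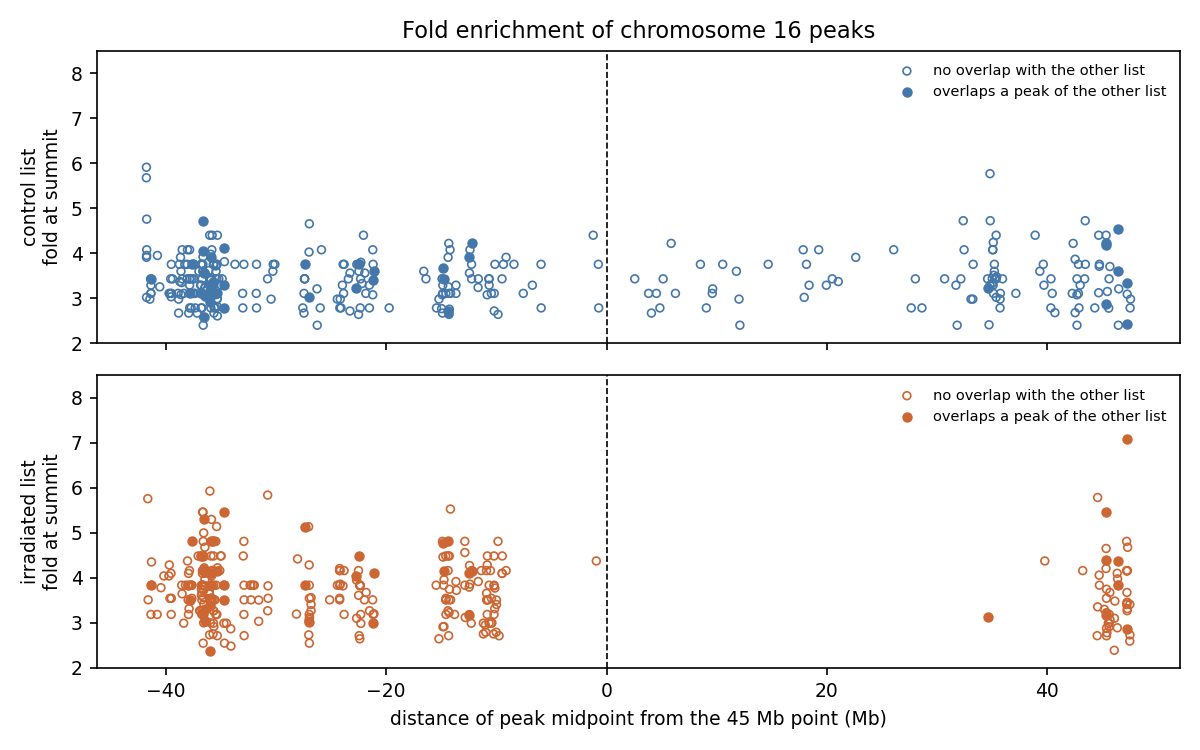
Fold at the summit of each control peak (upper panel) and irradiated peak (lower panel) of chromosome 16 against its distance from the 45 Mb point; filled points overlap a peak of the other list. Control folds between the 2 dense parts lie in the same range as elsewhere, and the irradiated panel is nearly empty there.

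Many peaks of both lists lay in groups, most of them before 45 Mb, though mostly at different positions within a group. Groups were made by joining peaks of both lists within 50 kb of each other. The presence of both lists in a group is thus partly built in, and no share from other chromosomes is given. The 20 groups of at least 8 peaks held 42.9% of the control and 61.9% of the irradiated peaks of the whole chromosome. Of these groups, 16 lay before 45 Mb and 4 after it. The largest lay in the intergenic stretch from 8902430 to 9395910, between 1810013L24Rik and Grin2a, with 26 control and 42 irradiated peaks, of which 7 control peaks overlapped an irradiated one. The next, from 8166170 to 8614008, with 24 and 40 peaks and 6 control peaks overlapping, ran over Tmem114, Mettl22 and into Abat. A group inside Rbfox1, from 6922987 to 7306742, had 14 and 12 peaks with 1 overlapping, and a group over an end of Grin2a, from 9530723 to 9696215, had 14 and 9 with 1. Between Fam43a and Xxylt1, from 30611863 to 30739392, there were 8 and 9. The irradiated list led more clearly beside Vpreb2, the surrogate light chain gene of early B cells, with 3 and 11 peaks from 17963838 to 18040741.

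Past 89 Mb the dense groups again held peaks of both lists. Beside and inside Hunk, which encodes a kinase of the AMPK-related family (90385284 to 90499555), a group from 90316184 to 90438328 had 5 control and 12 irradiated peaks. Between Mrps6 and Kcne2, a potassium channel subunit gene, a group from 92188518 to 92276927 had 3 and 13 peaks. It held the irradiated peak with the lowest q on the chromosome, at 92263566 to 92264418, with 20 reads (fold 7.09, q 1.12e-06). The control peak that overlapped it had 18 reads and a fold of 2.43. Its background was 4, against 0.704 for the irradiated peak, and the summits lay 467 bp apart. The 2 folds are therefore not compared. Between the interferon and interleukin receptor genes Il10rb and Ifnar1, at 91434916 to 91435298, both lists had a peak, with 13 reads and a fold of 4.53 in the control list and 14 reads and a fold of 4.38 in the irradiated list.

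The strong peaks of chromosome 16 did not overlap between the lists, though the 1 Mb bins from 3 and from 8 Mb held strong peaks of both. A q of at most 0.05, which is set within each list, was reached by 10 of 352 control and 41 of 341 irradiated peaks. In the whole lists it was reached by 675 of 9866 control and 2453 of 16091 irradiated peaks. The control peaks with the lowest q stood before the first gene of the table, at 3241174 to 3241814, with 32 reads (fold 5.68, q 8.82e-07), and at 3246376 to 3246810, with 27 reads (fold 5.91, q 4.01e-06). Their backgrounds were 2.91 and 2.18 times the lowest of the list, and no irradiated peak overlapped them. Of the irradiated peaks, 17 of 41 lay between 8 and 10 Mb, and 33 before 36 Mb. None of the 10 overlapped any of the 41, while 2 control and 11 irradiated ones overlapped a peak of any strength of the other list. The overlap of strong peaks over the series was not counted, so none of this is shown to be particular to chromosome 16. Of all control peaks of the chromosome only 11.1% overlapped an irradiated peak of any strength. The lack of overlap among 10 strong ones is therefore no separate result.

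Few peaks were shared. Of the control peaks of chromosome 16, 39 shared 1 bp or more with an irradiated peak (11.1%, 8.00 to 14.8), against 21.4% of all control peaks. Of the irradiated peaks, 42 overlapped a control peak (12.3%, 9.02 to 16.3), against 13.3% of all irradiated peaks. The control share was 13.2% (9.14 to 18.2) before 36 Mb and 31.8% (13.9 to 54.9) between 89 and 93 Mb. Between 36 and 89 Mb it was 1.05% (0.0266 to 5.73). That stretch was set after the counts were seen and held 4 irradiated peaks. Few control peaks could overlap one there, so this share is no separate result. Of the overlaps, 36 joined a single control peak to a single irradiated peak, 28 of them before 45 Mb and 8 after it.

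Few genes of chromosome 16 had a peak. Marked genes are those with any peak inside them or no more than 2000 bp away. Of 679 protein-coding genes, a control peak marked 34 (5.01%) and an irradiated peak 23 (3.39%), against 6.05% and 8.20% of all 21887 genes. A peak in both lists was found for 14 (2.06%, against 3.67% of all genes), in the control list alone for 20 (2.95%, against 2.38%) and in the irradiated list alone for 9 (1.33%, against 4.53%). Before 45 Mb these numbers were 12, 12 and 8 of 399 genes, and from 45 Mb 2, 8 and 1 of 280. Between 36 and 89 Mb, limits chosen after the counts were seen, 11 of 240 genes had a control peak alone. There 1 gene had peaks in both lists and 0 had an irradiated peak alone.

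**Figure D4:**
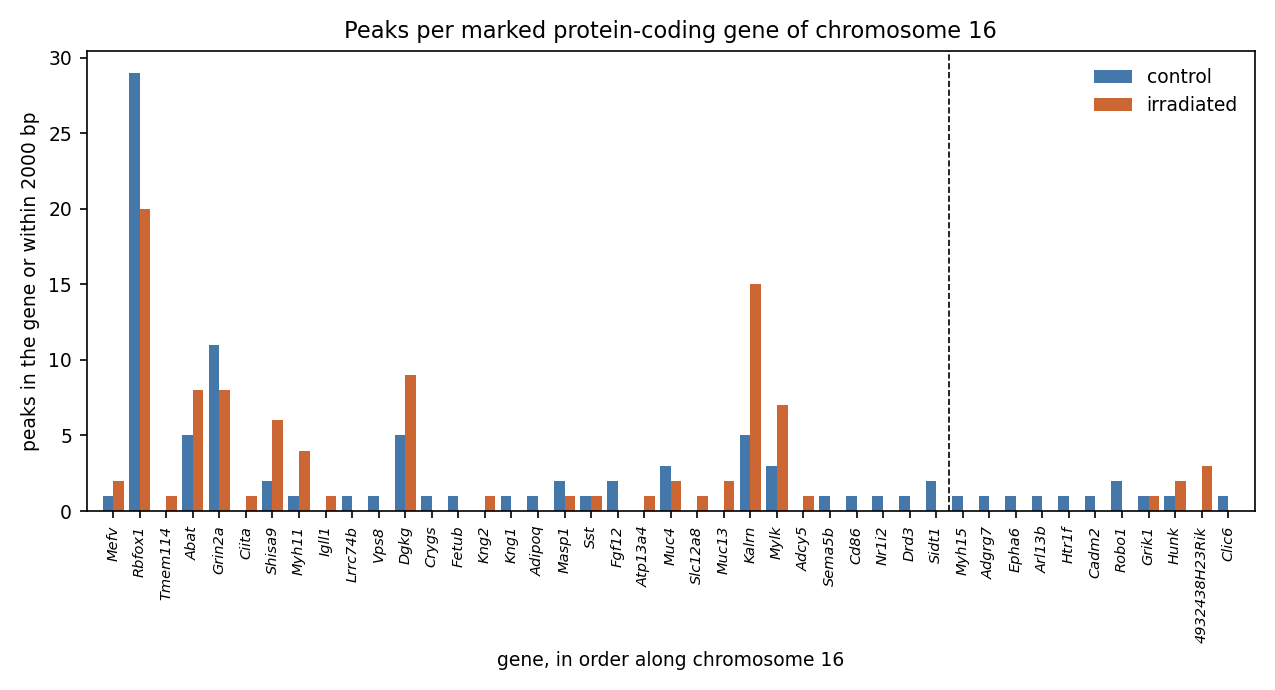
Number of control (blue) and irradiated (orange) peaks in each of the 43 marked protein-coding genes of chromosome 16, in their order along it; the dashed line stands at 45 Mb. Rbfox1 holds the most, and from Sema5b to Robo1 each gene has control peaks alone.

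Genes with peaks in both lists before 45 Mb were led by long neuronal genes. Rbfox1, which encodes a neuronal splicing regulator (5884793 to 7412480, 1528 kb), held 29 control and 20 irradiated peaks, and 2 of each overlapped. Its strongest peaks had 11 reads and a fold of 4.08 in the control list and 13 reads (fold 4.81, q 0.0119) in the irradiated list, at different sites. Grin2a, which encodes an NMDA receptor subunit (9567901 to 9996083), held 11 and 8, with folds of 4.40 and 5.14 at the strongest peaks. In both genes the control list had more peaks. In the next ones the irradiated list had more. Kalrn, which encodes a guanine nucleotide exchange factor of dendritic spines (33969073 to 34573277), held 5 and 15, none of them overlapping. Dgkg, a diacylglycerol kinase gene, held 5 and 9, Abat, which encodes the enzyme that degrades the transmitter GABA, 5 and 8, and Mylk, the gene of myosin light chain kinase, 3 and 7. Shisa9, which encodes an AMPA receptor auxiliary protein, held 2 and 6. Myh11, the smooth muscle myosin gene (14194527 to 14292188), held 1 and 4, and its strongest irradiated peak, at 14246675 to 14247063, had 17 reads (fold 5.84, q 0.000375).

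Genes with irradiated peaks alone before 45 Mb had 1 or 2 each. Muc13, an epithelial mucin gene, held 2, of which the one with the lower p had 8 reads and a fold of 2.75. Slc12a8, a cotransporter gene, had the lowest q of these, 0.0536, with 11 reads and a fold of 4.16. Ciita, the master regulator gene of class II antigen presentation, had a peak with 9 reads (fold 2.99, q 0.857). Igll1, Kng2, Atp13a4, Adcy5 and Tmem114 had 1 peak each, with folds of 3.19, 3.51, 3.84, 2.71 and 3.24. None of these 8 genes reached a q of 0.05. Genes with control peaks alone on this side included Fgf12, which encodes an intracellular fibroblast growth factor homologue, and Sidt1, each with 2 peaks. Fetub, which encodes the plasma protein fetuin B, and Drd3, which encodes a dopamine receptor, each had a peak with 12 reads (fold 4.40, q 0.0823). Cd86, a costimulatory ligand gene of antigen-presenting cells, and Sema5b, a semaphorin gene, each had a peak with 10 reads and a fold of 3.75.

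From 45 Mb the genes marked in the control list alone were 8, and 7 of them lay between 45 and 79 Mb with 1 or 2 peaks each. Robo1, which encodes a receptor of axon guidance (72027518 to 73047491), held 2, the stronger with 9 reads and a fold of 3.43. Cadm2, a synaptic adhesion gene, had a peak with 11 reads and a fold of 3.91, Epha6, an ephrin receptor gene, a peak with 10 reads and a fold of 3.75, and Htr1f, a serotonin receptor gene, a peak with 9 reads and a fold of 3.29. Arl13b, a small GTPase gene of the cilium, had 11 reads and a fold of 4.08, Adgrg7 10 reads and a fold of 3.60, and Myh15 7 reads and a fold of 2.67. Clic6, past 92 Mb, had 7 reads and a fold of 2.78. The lowest q among these 8 genes was 0.385. Grik1 had 1 peak in each list at different sites, with folds of 3.29 and 4.16, and Hunk had 1 control and 2 irradiated peaks. The predicted gene 4932438H23Rik, named to complete the count, had 3 irradiated peaks alone.

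The gene lists were read against 6.33% of the chromosome's genes, and 10.6% of all genes, with a peak in at least 1 list. Long genes have more room for peaks, and no list was matched on length. The lists were also chosen with earlier results of these data known. The counts of this paragraph are therefore a description and do not show an excess of any class. Neuronal channels, receptors and regulators had 8 of 20 members with a peak, 4 in both lists (Rbfox1, Grin2a, Sst and Grik1), 3 in the control list alone (Fgf12, Drd3 and Htr1f) and 1 in the irradiated list alone (Adcy5). Sst, the somatostatin gene, had a control peak with 10 reads and a fold of 3.61 and an irradiated peak with 11 reads and a fold of 4.10 in its flank. Genes of neuronal adhesion and axon guidance had 4 of 17 with a peak, all in the control list alone (Sema5b, Epha6, Cadm2 and Robo1). Of these 17 genes, 12 lie from 45 Mb. Epha6, Cadm2 and Robo1, like Htr1f, lie between 45 and 79 Mb, where the irradiated list had no peak. Gene class and position cannot be told apart there. Plasma protein genes of liver and fat had 5 of 14: Masp1, a complement protease gene, in both lists, Fetub, Kng1 and Adipoq in the control list alone, and Kng2 in the irradiated list alone. Mucins and epithelial genes had 2 of 16, with 3 control and 2 irradiated peaks in Muc4, and immunoglobulin superfamily genes of leukocytes had 2 of 21, Igll1 and Cd86.

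Other groups had few peaks or none. A peak of either list marked 6.33% of the chromosome's genes. At that share, lists of these sizes would hold few marked genes or none. The gene counts that follow are therefore not shown to differ from the chromosome, and no test was made. None of 21 developmental transcription factor genes had a peak in either list. Among them were Olig1 and Olig2 of the oligodendrocyte lineage, Sim2, Tbx1, Hes1 and Runx1. Polycomb is known to keep this gene class silent, but absence from a list does not show that these genes lack the mark. None of 8 Stefin A genes, 24 keratin-associated protein genes, 36 olfactory receptor genes or 28 genes of the mouse counterpart of the 22q11 deletion had a peak. Of 58 listed genes of the mouse counterpart of human chromosome 21, 2 had a peak, Grik1 and Hunk. Robo1 had been put in that list wrongly, since its human counterpart lies on another chromosome, and was removed after its values were seen; the list is not complete and does not hold Clic6. The median distance to the nearest start was 49498 bp for control and 27723 bp for irradiated peaks, against 34517 and 25968 bp in the series. The share of peaks touching a gene was 25.9% and 27.3%, against 29.8% and 35.8%.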

How the data were processed

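For both H3K27me3 libraries of GL261 cells the authors deposited a separate peak list, not one on pooled samples. BWA, deepTools and the build mm10 are named per the submitters' processing notes, without versions; for the caller, its settings and the role of the input, the sources used here give nothing. Positions (start, end, summit) are in bp as deposited. The deposited score equals 10 times −log10 p without its decimals in 100% of lines. The deposited ratio is the fold at the summit, and significance was deposited as −log10 of the p-value and of the adjusted q-value. No p exceeded 0.00495 (control) or 0.00499 (irradiated).

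Lines with a further summit of an interval (215 and 679) were merged at the lowest p. Whole reads and background were solved from fold and p under a Poisson model (tolerance 0.005); 100% of lines gave a solution, with more than 1 in 0.0198% and 0.930%. In simulated lists of 2982 and 3937 peaks, 100% were right. The simulation used the same Poisson model and held no peak with as few as 7 or 8 reads. It therefore tested neither the model nor the weakest peaks. A read counted as 0.620 and 0.554 scaled reads, and the lowest background was 0.918 and 0.704. ChIP library totals are unknown. Peaks were placed by their midpoint. Genes and promoters came from RefSeq tables of GRCm38.p6, with exons not resolved, and no genome sequence was used. Intervals, also of a count of 0, are exact (Clopper-Pearson, 95%). Named genes were, on each side, up to 8 per class by number of peaks and then p, without Gm and Rik names, and up to 4 of each gene list by p; others complete a count. The members, the 45 Mb point and the lists were chosen with earlier results of these data known. Python 3.11.15, numpy 2.4.6, pandas 2.3.3 and scipy 1.17.1 were used.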

Additional observations from a re-analysis of the deposited data

How the results depend on the processing

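Of 70 values computed under other settings, 40 stayed within the interval of the reported value (or within 1.5 times for a count of genes) and 30 moved beyond it; 13 of the 70 were chosen after seeing the data, those with at least 10 reads and those of the 36 to 89 Mb stretch. No paired analysis was possible because each group has 1 library, and for the same reason no library could be left out. The irradiated share between 36 and 89 Mb stayed between 3.06% and 6.25% under 6 settings, and was 0% at a q of at most 0.05, where 4 control and 0 irradiated peaks remained.

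The irradiated share of the whole chromosome was 55.4% with −log10 p at 3 or more, 80.4% at a q of at most 0.05, 37.4% with equal numbers of peaks, 45.2% with peaks within 5000 bp merged and 62% with at least 10 reads. Before 45 Mb the first 3 of these settings gave 61.2%, 86.8% and 42.7%, and at least 10 reads gave 67.7%. From 45 Mb the share was 61.5% at a q of at most 0.05, 21% with equal numbers, 23.1% with a background under 1.5 times the lowest, 8% up to 90 Mb and 44.1% with at least 10 reads. The share of control peaks overlapping an irradiated peak was 0% at a q of at most 0.05, 7.96% with equal numbers, 5.68% with a reciprocal overlap of 50% and 17.1% within 1000 bp; for irradiated peaks it was 0%, 5.87% (reciprocal) and 18.8% (within 1000 bp). Genes with a peak in both lists numbered 0 at a q of at most 0.05 and 9 with at least 10 reads, genes in the control list alone 0 and 12, and genes in the irradiated list alone 5 at that q, with equal numbers and at low background. With −log10 p at 3 or more the median control fold was 3.60. The cause of these shifts was not tested. Most peaks rest on about 10 reads, so the numbers of weak peaks depend on the threshold.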
